A study of Mus musculus with 14 samples.

Results

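The set described here is 20220 regions of mouse retinal chromatin at which Otx2 was detected by CUT&RUN at embryonic day 14 (E14), at birth (P0) or at both stages. They are part of the 39193 regions that had a peak in any of the 10 CUT&RUN lists of the study, counted on chr1 to chr19. An E14 region was a peak of the single E14 library, of which there were 8497. A P0 region was a run of overlapping peaks with at least 1 peak from each of the 2 P0 libraries, of which there were 18280. An E14 region was called kept where it shared at least 1 bp with a P0 region and lost where it did not. A P0 region that shared no base with an E14 region was called gained.

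All 3 Otx2 libraries came from retina of wild-type (WT) CD1 mice, per the labels. CUT&RUN tethers a nuclease to a chromatin protein through an antibody and sequences the fragments it releases. The study also holds Otx2 libraries of adult retina, libraries of the corepressor BCOR at the same stages, and RNA libraries that were not used here. The labels name no animals or pools behind a library, so the spread between the P0 libraries may be technical, and the series text writes the factor as Otx2/Crx where the samples say Otx2.

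Otx2 is a homeobox transcription factor that is switched on in retinal cells as they leave division. It is needed to make photoreceptors and later bipolar cells, and it turns on Crx, a close relative that recognises a similar DNA element. At E14 the mouse retina is mostly dividing progenitors with early-born neurons such as ganglion cells, cones and horizontal cells, while at birth many rod precursors are being made. BCOR is a corepressor and a subunit of a variant Polycomb repressive complex. In bulk tissue, more cells that hold Otx2 and more Otx2 on the DNA of each cell cannot be told apart.

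The peaks were called by the authors for each library on its own, and each carries the authors' fold, a ratio of the signal over the local background, and a −log10 p-value. Both are used here only to rank peaks within a list or to describe a named region. Read depth is unknown for every library, so more peaks at P0 than at E14 is a property of the lists and not by itself a measure of more binding. The largest q-value admitted also differed, at 0.0996 in the E14 list, 0.0480 in P0 replicate 1 and 0.0473 in P0 replicate 2. With 1 library against 2, no rearrangement of the libraries can give a p below 0.333, so no test between the stages was made. Shares are given with 95% Wilson intervals, which cover counting error only. No annotation of the build of the files, mm9, was used here, so regions are named by their mm9 coordinates, counted from 1, and no genes or tissue markers were attached to them.

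In the full lists, most of the E14 regions had a P0 region, and most of the P0 regions were absent from the shorter E14 list. With the P0 regions cut to the E14 number, 55.8% of E14 regions were kept and 45.0% of P0 regions were gained. Of the 8497 E14 regions, 6557 overlapped a P0 region, which is 77.2% (interval 76.3 to 78.1%). The other 1940 were lost, which is 22.8% (21.9 to 23.7%). The kept E14 regions met 6488 P0 regions, or 35.5% (34.8 to 36.2%) of the 18280 at P0. The remaining 11792 P0 regions were gained, or 64.5% (63.8 to 65.2%).

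The spread between the P0 libraries gives only a rough scale for these shares. P0 replicate 1 held 21759 peaks, of which 84.7% overlapped a peak of replicate 2. P0 replicate 2 held 24884 peaks, of which 73.8% overlapped a peak of replicate 1. The share of E14 regions lost lay between the unshared shares of the P0 libraries, and the gained share was larger than either. The rules and list lengths were unlike, however. A kept E14 region needed overlapping peaks of both P0 libraries, while each P0 library was set against 1 other list. The gained share set 18280 P0 regions against only 8497 E14 regions, and 7 kept E14 regions touched more than 1 P0 region. With such matching, most P0 regions had to stay unmatched, so a gained majority followed from the list lengths.

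Loss was often incomplete across the P0 libraries. Of the 1940 lost regions, 1234 (63.6%) had no peak in either P0 library. A further 220 had a peak in replicate 1 alone, 478 had one in replicate 2 alone, and 8 had a peak in each library that did not overlap each other. Counted against the P0 libraries singly, 79.6% of the E14 regions overlapped a peak of replicate 1 and 82.7% a peak of replicate 2, and 85.5% overlapped a peak of at least 1 of them.

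Few calls sat at the edge of the overlap rule. Among the kept E14 regions, 12 shared fewer than 50 bp with their P0 region and 47 shared fewer than 100 bp. Among the lost regions, 5 lay within 50 bp of a P0 region and 50 within 500 bp. Of the gained regions, 7 lay within 50 bp of an E14 region and 118 within 500 bp. The median overlap was 325 bp, and the median kept E14 region lay wholly inside its P0 region. Overlapping peaks, some of them in lost regions, were also placed alike. Their summits lay a median of 50 bp apart between E14 and P0 replicate 1 and 47 bp apart between E14 and P0 replicate 2. The distance was 41 bp between the P0 replicates.

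Kept regions were the stronger ones at both stages. In the E14 list the median fold was 6.34 for kept regions (quartiles 5.02 and 8.21) and 5.01 for lost regions (4.32 and 6.09). The median kept peak was 346 bp wide and the median lost peak 261 bp. The lost regions with no P0 peak at all had a median fold of 4.84, and those with a peak in 1 P0 library had 5.25. At P0 the median fold was 9.87 in replicate 1 and 10.7 in replicate 2 for kept regions, against 6.32 and 7.04 for gained regions. Kept P0 regions were a median of 652 bp wide and gained ones 504.5 bp. The quartile ranges overlapped in every one of these pairs, so strength separated the classes only in part, as the distributions of the folds show.

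**Figure D1:**
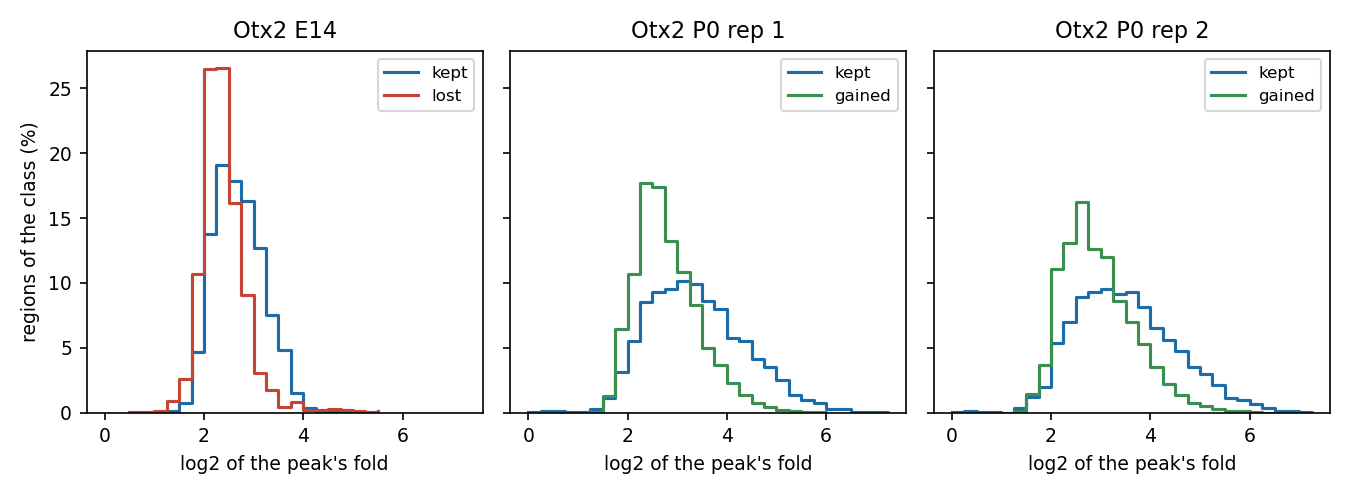
Distribution of the authors' peak folds (horizontal axis, log2 of the ratio) as a percentage of the regions of each class (vertical axis, steps of 0.25 log2 units), in the E14 list and in each P0 list. Kept regions (blue) have a higher median than lost regions (red) at E14, 6.34 against 5.01 as folds, and than gained regions (green) at P0, and the curves overlap over most of their range.

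Each list was ranked by −log10 p and divided into 10 bins of equal size, from bin 1, the strongest, to bin 10. The E14 list ran from 94.5% kept in bin 2 (92.7 to 95.8%) to 57.2% in bin 10 (53.8 to 60.5%). Bin 1 stood at 92.7% (90.8 to 94.3%). The fall was steeper on the P0 side. In bin 1 of the P0 regions 84.4% had an E14 region (82.7 to 86.0%), 30.3% did in bin 5, and 10.5% (9.18 to 12.0%) did in bin 10. The strongest binding at birth thus lay mainly at regions already listed at E14, and the weaker binding mainly at regions that were not.

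**Figure D2:**
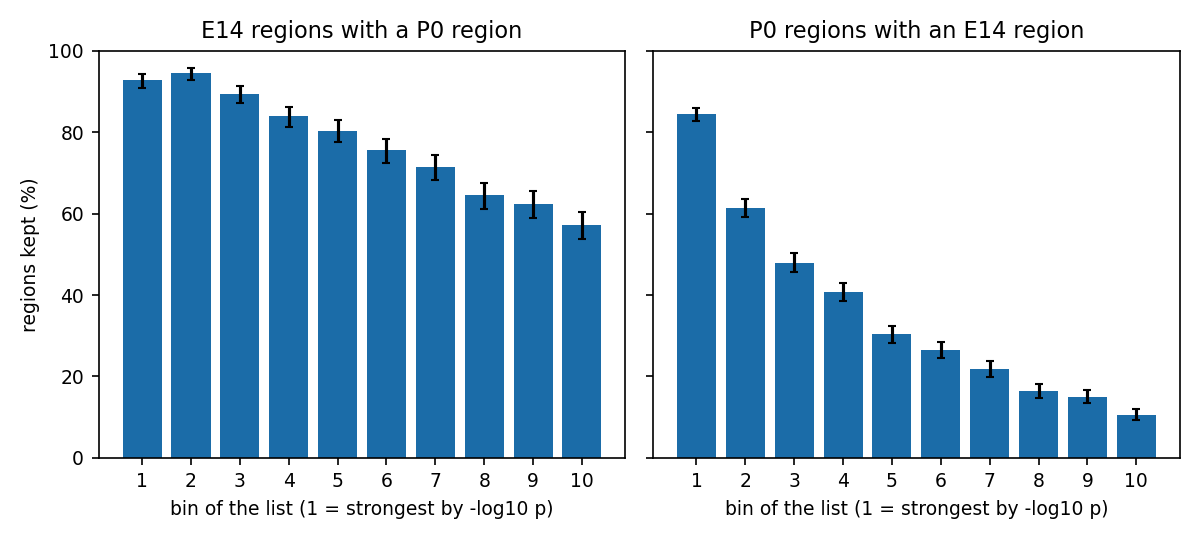
Share of regions kept (vertical axis, percent) in each of 10 equal bins of the list from the strongest to the weakest by −log10 p (horizontal axis), for E14 regions on the left and P0 regions on the right; bars are shares and lines are 95% Wilson intervals. The share runs from 92.7 to 57.2% across the E14 bins and from 84.4 to 10.5% across the P0 bins.

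List length bears on these shares, because the P0 lists are more than 2 times as long. When each P0 list was cut to its 8497 strongest peaks, 55.5% of the E14 peaks (54.5 to 56.6%) overlapped a peak of replicate 1 and 54.5% (53.4 to 55.5%) a peak of replicate 2. At that length 85.2% (84.4 to 85.9%) of the peaks of replicate 1 overlapped one of replicate 2. Cutting the P0 regions to the same number gave 55.8% of E14 regions kept and 45.0% of P0 regions gained. At equal length the E14 list thus overlapped each P0 list less than the P0 lists overlapped each other. With 1 library at E14, the stage and the quality or preparation of that library cannot be told apart. The larger number of gained than of lost regions in the full lists goes with the longer P0 lists, and at equal length these numbers are close by construction.

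The separation was widest among the strongest peaks. Among the strongest 500 of each list, 28.0% of the E14 peaks (24.2 to 32.1%) were shared with P0 replicate 1 and 25.8% (22.2 to 29.8%) with replicate 2, against 85.6% (82.3 to 88.4%) between the replicates. The shares with E14 rose with length, to 42.7 and 39.75% at 2000 peaks and to 51.3 and 50.1% at 5000, while the share between the replicates ran from 84.3 to 86.6% over these lengths. Yet the strongest peaks of a stage were rarely missing from the other. Of the strongest 500 E14 peaks, 90.2% overlapped some peak of the full P0 replicate 1 list and 91.0% one of replicate 2. Of the strongest 500 peaks of P0 replicate 1, 92.6% overlapped some E14 peak, and of replicate 2, 89.8%. The strongest sites of each stage were thus mostly present in both stages at a different rank.

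**Figure D3:**
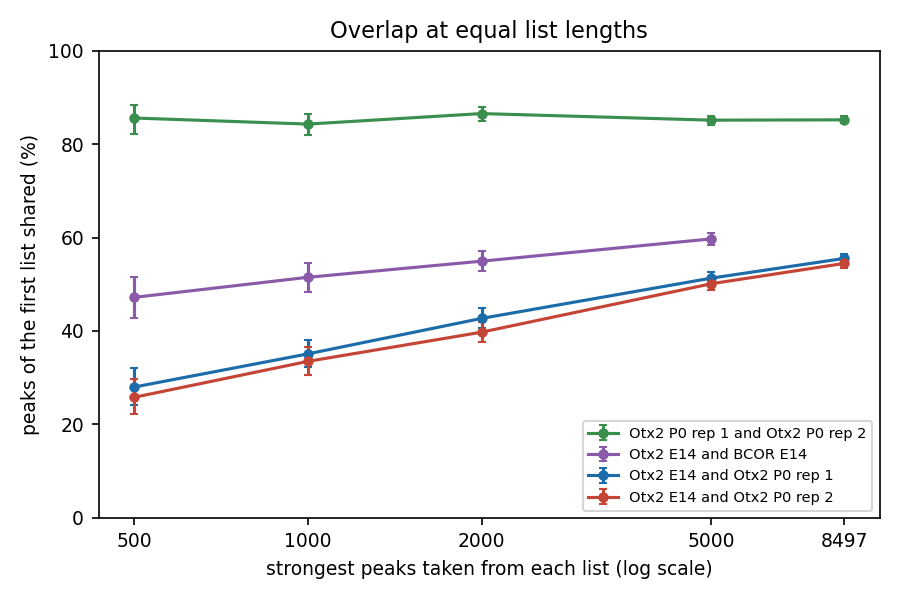
Share of peaks of the first named list that overlap the second (vertical axis, percent) when each list is cut to the same number of strongest peaks (horizontal axis, log scale); points are shares and lines are 95% Wilson intervals. The P0 replicates share 84.3 to 86.6% at every length, and Otx2 E14 shares 25.8 to 55.5% with the P0 lists and 47.2 to 59.7% with BCOR E14 over the 4 lengths drawn for that pair.

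Rank order among overlapping peaks differed in the same way. The pairs with E14 are all E14 peaks that overlap a peak of the named P0 library, including some in regions called lost. Across 6770 overlapping pairs of peaks, Spearman's rho between E14 and P0 replicate 1 was 0.19 for the fold and 0.39 for −log10 p. Across 7039 pairs with P0 replicate 2 it was 0.16 and 0.38. Across 18518 pairs between the P0 replicates it was 0.82 and 0.85. These values describe pairs of peaks, which are not independent replicates, and pairs from 1 library share its depth and background. The P0 pairs also include weaker regions than the pairs with E14.

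The E14 Otx2 list was closer to the E14 BCOR list than to the P0 Otx2 lists in this respect. Otx2 and BCOR at E14 shared 47.2% (42.9 to 51.6%) of their strongest 500 peaks and 59.7% of their strongest 5000. Across 5597 overlapping pairs, rho was 0.50 for the fold and 0.51 for −log10 p, the latter against 0.39 and 0.38 with the P0 Otx2 lists. Their summits were not closer, at a median of 57 bp apart against 50 and 47 bp. At P0, Otx2 and BCOR shared 9.80% of the strongest 500 in replicate 1 and 10.2% in replicate 2, and 31.7 and 35.1% of the strongest 5000. The labels do not say whether libraries of a stage were made side by side, and a shared preparation and shared binding cannot be told apart.

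A small group of E14 regions had −log10 p values far above the rest. There were 57 regions at 100 or more, and 56 of them had a BCOR E14 peak, which for 47 was itself at 100 or more. Of the 57, 20 lay in the first 3.1 Mb of chr9. Only 37 of the 57 were kept, 64.9% (51.9 to 76.0%), and the 20 that were lost had no P0 peak in either library. No list of regions of mm9 known for false signal was used here, so whether the signal at these 57 places comes from the mapping of reads rather than from Otx2 was not tested. Their folds and ranks carry that limit wherever they are given. Among the rest of bin 1 of the E14 list, 750 of 792 were kept, 94.7% (92.9 to 96.1%). Without these regions, the first 3.1 Mb of chr9 and the stretch from 14 to 16 Mb of chr5, which were chosen after the data were seen, the kept share was 77.5% and the gained share 64.6%.

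Among the kept regions with the best rank in all 3 Otx2 lists, 5 of the 6 named belonged to that group. The region chr2:98506793-98507373 ranked first in all 3 lists, yet its folds were 21.3 at E14 and 2.32 and 2.01 at P0. In the BCOR lists the same region had folds of 19.5 at E14 and 2.49 and 2.70 at P0, so the fold was lower at P0 than at E14 for both proteins. The region chr9:123370922-123371306 had Otx2 folds of 38.1, 7.10 and 5.77 and a BCOR E14 fold of 36.4, and chr6:3150858-3151665 had 22.2, 10.1 and 9.13 with a BCOR E14 fold of 23.1. The region chr17:39979951-39985747 spanned 5797 bp, the widest of the kept regions at P0, with low folds of 3.05, 6.41 and 6.10. At these 4 places the fold was similar for Otx2 and BCOR at E14.

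The other kept regions named by rank had higher folds in the P0 lists than in the E14 list and were also listed in the adult; folds of different libraries are set side by side here as description, since their depths are unknown. The first of them is also 1 of the 57, with an E14 −log10 p of 116, and the second lies just under the level, at 98.2. At chr7:52241056-52242677, 1622 bp wide, the Otx2 fold was 17.1 at E14, 60.0 and 57.6 at P0, then 23.4 and 67.2 in the adult libraries. Its BCOR folds were lower, at 12.6 at E14 and 4.66 and 7.94 at P0. At chr1:133423626-133424681 the Otx2 fold was 15.2 at E14, 31.6 and 29.0 at P0, then 9.25 and 25.3 in the adult. This region had a BCOR peak in every BCOR list, with folds from 4.14 to 13.6.

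Further kept regions were picked after their values were seen, as the best ranked with an E14 −log10 p under 100. The region chr3:38611207-38612280 had an Otx2 fold of 15.9 at E14 and 124 and 142.5 at P0. It had no BCOR peak in any list, no peak in adult replicate 1 and a fold of 6.81 in adult replicate 2. The region chr17:57170822-57171912 had 13.3 at E14, 59.9 and 61.1 at P0, then 30.8 and 87.8 in the adult, with BCOR peaks in all 5 BCOR lists. The region chr14:60355515-60356948 had 13.3 at E14, 43.9 and 40.1 at P0, then 6.77 and 18.8 in the adult. These 3 regions had like folds at E14 and differed at P0, in the adult and in whether a BCOR list held them.

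Kept regions could also move far within the lists. The region chr14:27251365-27252677 stood at percentile 4.63 of the E14 list with a fold of 4.04. At P0 it stood at percentiles 98.4 and 99.4 with folds of 45.6 and 66.4, and no adult Otx2 list held it. The region chr12:41051061-41052413 rose from percentile 2.11 to 96.2 and 97.4, with folds of 3.73, 28.1 and 35.0. The region chr13:116117936-116118772 rose from 2.77 to 95.8 in both P0 lists, with folds of 3.85, 31.1 and 32.5, and had adult folds of 7.89 and 14.2. All 3 were among the weakest E14 peaks, at ranks of 8105, 8319 and 8263 of 8497 in the order given, and would have counted as gained had the E14 list ended earlier.

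Other kept regions had a lower percentile at P0 than at E14. Percentiles are places within lists of different length and threshold, so neither a rise nor a fall in them measures a change in binding. The region chr6:87837697-87837964 went from percentile 84.1 with a fold of 10.1 to 8.18 and 6.98 with folds of 2.95 and 2.88. The region chr4:135411645-135412038 went from 79.7 with a fold of 8.01 to 16.8 and 12.8 with folds of 4.07 and 3.42. At the latter the BCOR folds were 7.78 at E14, 14.5 and 21.2 at P0, then 10.0 and 12.7 in the adult, so the BCOR folds there were higher in the later lists and the Otx2 folds lower at P0. The region chr1:24622379-24622921 went from 92.1 to 10.6 and 20.1, with low folds of 3.25, 1.58 and 1.58, and in the adult had 6.32 and 10.7. Its BCOR folds took a like course, at 2.92 at E14, no peak at P0, then 2.62 and 5.09 in the adult.

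The 6 lost regions with the best E14 ranks and no P0 peak all belonged to the 57 with very high −log10 p, with the limit given there, and were high in the BCOR E14 list as well. The region chr9:35112806-35113176 had an Otx2 fold of 40.9 and a BCOR fold of 38.3 at E14. The region chr12:3109873-3110118 had 46.5 and 43.8, and chr6:103599043-103599286 had 50.1 and 46.4, the highest Otx2 fold of the E14 list. The next were chr2:98502406-98502933 with 3.23 and 3.22, a region on chr18 with 30.7 and 24.5, and chr2:181747433-181747953 with 29.0 and 24.5. The BCOR fold was a little below the Otx2 fold at each of these 6 regions, which were chosen for having no P0 Otx2 peak. The chr18 region and the chr2 regions were in both adult Otx2 lists, with low folds from 1.44 to 1.88. The region chr9:35112806-35113176 had a fold of 1.63 in adult replicate 2 and a BCOR fold of 1.62 in P0 replicate 2. At chr2:98502406-98502933 the BCOR folds at P0 were 1.64 and 1.70.

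Of the 1234 regions with no P0 peak, 452 (36.6%) had no BCOR peak in any list either. The best ranked of these, chosen after the values were seen, were narrow. The region chr17:68090704-68090880, 177 bp wide, had an Otx2 fold of 25.3 at E14 and no peak in any other list of the study. The same held for chr19:45724552-45724739 with 17.8, chr12:94815435-94815626 with 17.4 and chr17:13498872-13499121 with 15.3. With a single E14 library, no replicate stands behind a region seen in that list alone.

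Some lost regions were listed again in the adult, in numbers that depend on the adult library. Of the 1234, 22 (1.78%) had a peak in adult replicate 1 and 187 (15.2%) had one in adult replicate 2, and 20 (1.62%) had a peak in both. The share of all regions with an adult Otx2 region was 21.3%. The region chr4:102446722-102447178 had an Otx2 fold of 5.67 at E14, no peak at P0, then 13.4 and 32.2 in the adult. The region chr13:118391145-118391391 had 4.67 at E14 and 12.2 and 22.7 in the adult, and chr2:34982368-34982576 had 7.18 at E14 and 6.83 and 8.78 in the adult. None of these 3 had a BCOR peak in any list.

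The gained regions included some of the strongest Otx2 sites at birth, with the best rank of any gained region at 119 in replicate 1 and 74 in replicate 2. Both ranks belonged to chr3:118765969-118767418, 1450 bp wide, with folds of 71.5 and 91.7 at P0. It had BCOR folds of 7.28 and 8.15 at P0 and no peak in the adult Otx2 lists. The regions chr1:140443975-140445064 and chr6:95037067-95038268 were alike, with Otx2 folds of 46.0 and 54.8 at the first and 63.4 and 87.3 at the second. Both had BCOR peaks in both P0 lists, with folds of 6.49 and 8.87 and of 3.89 and 6.71, and neither was held by an adult Otx2 list. Otx2 and BCOR were thus both listed at P0 and neither at E14 at these 3 regions. Of all 11792 gained regions, 166 (1.41%) had BCOR at P0 alone. This pattern was about as rare in the other classes, at 1.80% of kept and 1.24% of lost regions.

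The other 3 best ranked gained regions had no BCOR peak at E14 or P0 and were bound in the adult. The region chr7:53070415-53071362 had Otx2 folds of 62.3 and 65.7 at P0 and adult folds of 121 and 367, the latter the highest of any region named here. It had BCOR folds of 7.11 and 5.75 in the adult. The region chr11:6638280-6639158 had 60.1 and 72.5 at P0 and adult folds of 9.37 and 25.4, and chr7:132866695-132867501 had 67.3 and 75.4 at P0 and adult folds of 6.41 and 12.4. Chosen after the values were seen, chr5:73034750-73035582 had 49.5 and 54.1 at P0 and adult folds of 48.8 and 121, and chr12:3786921-3787699 had 26.9 and 32.5 at P0 and adult folds of 27.3 and 68.8.

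Regions kept from E14 to birth were also the ones most often held in the adult. Over all 20220 regions, 21.3% overlapped an adult Otx2 region, defined like the P0 regions by both adult libraries. The share was 35.1% for kept regions (33.9 to 36.2%), 16.5% for gained regions (15.9 to 17.2%) and 3.04% for lost regions (2.36 to 3.90%). The order of lost and gained held with each adult library, but the levels did not. With adult replicate 1 alone, which held 7183 peaks, the shares were 35.2, 17.1 and 2.84% for kept, gained and lost regions. With adult replicate 2 alone, which held 14590 peaks, they were 58.6, 27.2 and 22.1%, so without adult replicate 1 the lost share came close to the gained share. When adult replicate 2 was cut to its strongest 7183 peaks, they were 42.8, 15.9 and 6.39%.

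Read from the adult side, 34.8% of the 6591 adult Otx2 regions (33.7 to 36.0%) lay at a kept region and 28.9% (27.8 to 30.0%) at a gained one. Only 0.804% lay at a lost region. A further 35.5% lay at none of them, and this included 8.25% that met a peak of 1 P0 library. Regions first listed at P0 thus made up a smaller part of the adult set than those listed since E14, although they were 64.5% of the P0 regions.

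The difference between kept and gained regions varied with strength at P0. With the P0 regions in 5 equal bins by rank, 53.4% of kept and 30.2% of gained regions of the strongest bin had an adult region, and in the next bin 33.3 and 24.3%. In the middle bin the shares were 20.1 and 17.5%, and their intervals overlapped. In the weakest bin they were 8.35% (6.17 to 11.2%) and 10.2% (9.22 to 11.3%). With E14 regions in 5 bins of E14 rank, kept regions were above lost ones throughout, from 56.4 against 11.0% in the strongest to 23.6 against 2.04% in the weakest.

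**Figure D4:**
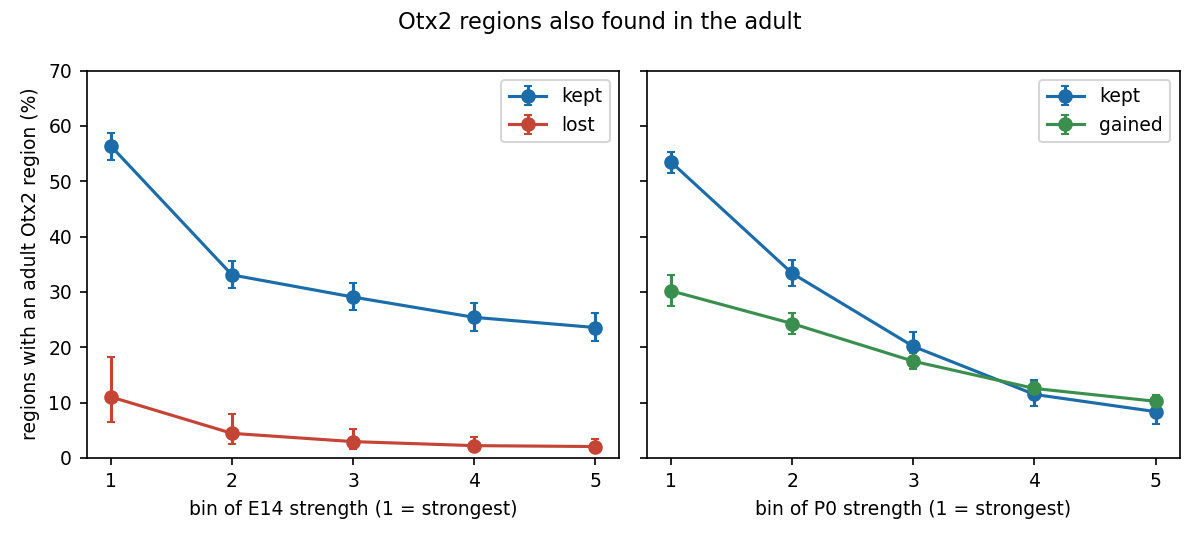
Share of regions that overlap an adult Otx2 region (vertical axis, percent) in 5 equal bins of strength from strongest to weakest (horizontal axis), for kept and lost regions ranked at E14 on the left and kept and gained regions ranked at P0 on the right; points are shares and lines are 95% Wilson intervals. Kept regions lie above lost ones in all 5 bins, and above gained ones in the strongest bin (53.4 against 30.2%) but not in the weakest (8.35 against 10.2%).

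BCOR peaks at E14 were about as frequent at kept as at lost regions and less frequent at gained ones. Over all 20220 regions, 34% overlapped a BCOR E14 peak. Of the kept regions 66.1% did (65.0 to 67.3%), of the lost regions 64.1% (62.0 to 66.2%) and of the gained regions 11.0% (10.4 to 11.6%). The kept and lost shares had overlapping intervals. Within 5 bins of E14 rank, from the strongest, the shares of kept and lost regions were 91.6 and 83.5%, 76.5 and 79.7%, 61.9 and 73.9%, 47.8 and 64.8%, and 37.4 and 50.1%. The intervals overlapped in the second of these bins and not in the other 4. A BCOR E14 peak was thus more frequent at kept regions only in the strongest bin, and there the intervals ran from 90.2 to 92.9% and from 75.4 to 89.3%.

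Over all strengths, BCOR at birth was found more at kept than at lost or gained regions. Over all regions, 17.7% overlapped a BCOR P0 region, called from both BCOR P0 libraries. The share was 39.9% for kept regions (38.8 to 41.1%), 23.0% for lost (21.2 to 24.9%) and 4.40% for gained (4.05 to 4.79%). The BCOR libraries differed, with 40.9, 23.5 and 5.22% in replicate 1, which held 5292 peaks, and 60.1, 41.7 and 11.3% in replicate 2, which held 8784. The order was the same in both libraries, and the levels without replicate 1 were higher in all 3 classes. The difference between kept and lost regions was carried by the stronger E14 regions. In the strongest of the 5 bins of E14 rank 67.6% of kept and 19.3% of lost regions had a BCOR P0 region, in the next bin 45.7 and 32.3%, and in the middle bin 31.9 and 24.0%. In the last bins the shares were 24.2 and 23.9%, then 16.75 and 19.3%, with overlapping intervals in both. Otx2 regions gained at birth were the largest class and the one with the least BCOR.

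Some lost Otx2 regions had BCOR at P0, but the lost class includes regions with a peak in a P0 Otx2 library. Of the 1940 lost regions, 422 (21.8%) had BCOR at both E14 and P0, and 822 (42.4%) had BCOR at E14 alone. Among the 1234 with no P0 Otx2 peak, 239 (19.4%) had a BCOR P0 region, against 17.7% of all 20220 regions. Of all 1940, 672 (34.6%) had BCOR at neither stage. Among kept regions, 38.1% had BCOR at both stages, 28.0% at E14 alone, 1.80% at P0 alone and 32.1% at neither. Among gained regions, 87.6% (87.0 to 88.2%) had BCOR at neither stage. BCOR was listed at E14 alone at 7.98% of them, at P0 alone at 1.41% and at both stages at 2.99%.

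In the adult, 4.74% of all regions overlapped a BCOR region, with 12.1% of kept, 4.49% of lost and 0.678% of gained regions. Within the 5 bins of E14 rank, the kept and lost shares separated only in the strongest, at 28.2 and 11.9%. From the next bin on they were 10.8 and 7.965%, 7.32 and 4.27%, 4.51 and 3.12%, and 3.45 and 3.36%, with overlapping intervals throughout. The adult BCOR lists were short, with 1339 and 2445 peaks, and admitted q-values up to 0.248. With adult BCOR replicate 1 alone the shares were 14.7, 5.88 and 1.08%, and with replicate 2 alone they were higher, at 22.4, 9.43 and 2.57%. Kept P0 regions with BCOR at P0 had an adult Otx2 region in 46.3% of cases (44.4 to 48.3%) and those without BCOR in 27.9% (26.6 to 29.4%). For gained regions the shares were 15.2% (12.4 to 18.6%) and 16.6% (15.9 to 17.3%), with overlapping intervals. Whether kept and gained regions differ in this respect was not tested. These shares were not split by strength, which both BCOR at P0 and adult Otx2 followed at kept regions. From the strongest to the weakest bin of E14 rank, BCOR P0 ran from 67.6 to 16.75% and adult Otx2 from 56.4 to 23.6%. By P0 rank they ran from 42.5 to 35.55% and from 53.4 to 8.35%. Whether strength accounts for the difference was not tested.

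**Figure D5:**
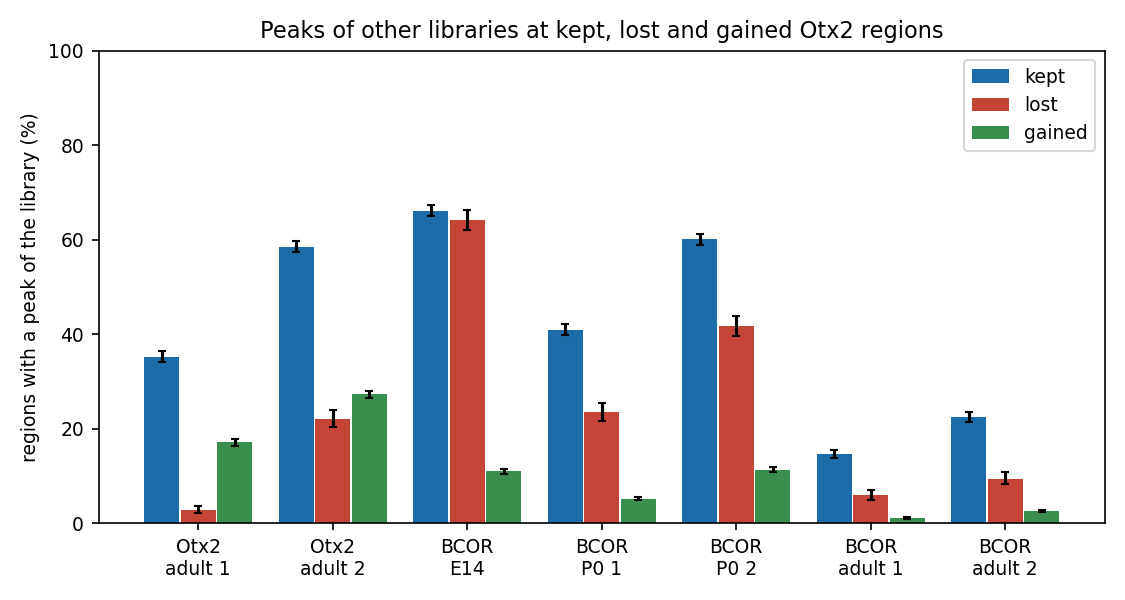
Share of kept, lost and gained Otx2 regions (blue, red and green bars, with 95% Wilson intervals) that overlap a peak of each single other library (horizontal axis; vertical axis in percent). BCOR E14 peaks are at 66.1% of kept and 64.1% of lost regions but 11.0% of gained ones, and the adult Otx2 replicates differ in every class, at 2.84 and 22.1% for lost regions.

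Kept, lost and gained regions were spread over all 19 chromosomes. The kept share ran from 72.2% on chr16 to 82.4% on chr19, and the gained share from 59.2% on chr19 to 68.0% on chr14. The number of P0 regions for each E14 region ran from 1.98 on chr19 to 2.49 on chr14.

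Most gained regions stood away from the E14 regions. The median distance from a gained region to the nearest E14 region was 61.8 kb, and 16.6% lay within 10 kb of one. The median distance to the nearest other gained region was 34.9 kb. From a kept region the nearest gained region lay a median of 38.9 kb away and the nearest other kept region 63.6 kb away. Gained regions outnumbered kept ones, which by itself shortens the distances to them.

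When P0 regions less than 10 kb apart were joined, 12154 stood alone and 36.5% of those were kept. In clusters of 2 regions 33.1% were kept, and in clusters of 3 or 4 regions 32.6%. In the 81 clusters of 5 or more regions, 40.6% of the regions were kept, and 74 clusters held both kept and gained regions. Mixed clusters were 46.0% of those of 2 regions and 91.4% of those of 5 or more, a share that size alone raises. The largest mixed cluster was chr8:122813596-122860347 with 13 P0 regions, of which 7 were kept and 6 gained. A cluster of 20 regions at chr9:3000325-3038192 was kept whole and is counted in the 40.6%. It lies in the first 3.1 Mb of chr9, which held 20 of the 57 E14 regions with very high −log10 p described above.

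The classes were unevenly spread over 1 Mb windows. The window chr5:132000001-133000000 held 29 gained and 5 kept regions and no lost one, and the peak lists of the window had 5 Otx2 peaks in the E14 library, 37 and 49 in the P0 libraries and 1 and 2 in the adult ones. The windows chr11:113000001-114000000 and chr8:122000001-123000000 held 25 and 24 gained regions beside 12 and 18 kept ones. The kept regions were densest in chr10:80000001-81000000, with 24 beside 14 gained regions. Next were chr7:52000001-53000000 with 23 kept and 15 gained regions and chr11:69000001-70000000 with 23 kept and 24 gained. BCOR peaks of the E14 list were found in all these windows, from 6 in the first to 36 on chr10.

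The lost regions were most concentrated on chr5. The windows from 14 to 15 Mb and from 15 to 16 Mb held 11 and 20 lost regions and together 1 kept one. Their 32 E14 peaks lay in chr5:14705404-15499571, with a median fold of 3.21 and folds from 2.43 to 7.12. This stretch was among those left out in the check on very high −log10 p above. Whether its signal comes from the mapping of reads was not tested. BCOR had 14 and 25 peaks in these windows at E14, but 0 and 0 in P0 replicate 1 and 1 and 2 in P0 replicate 2. Otx2 had 10 and 9 peaks there in P0 replicate 1 and 12 and 10 in replicate 2, mostly at other positions, since 10 and 6 of the P0 regions there were gained. The next window, chr2:181000001-182000000, held 10 lost, 3 kept and 10 gained regions. The lost ones include chr2:181747433-181747953, which belongs to the 57 with very high −log10 p.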

How the data were processed

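CUT&RUN peak lists of Otx2 in retina at E14 (1 library) and P0 (2 libraries) were analysed, with the adult Otx2 and all BCOR lists beside them; groups came from the sample titles. The authors called peaks for each library with MACS2, per the labels. Bowtie2, mm9 and mm10 appear in the submitters' processing notes; the sources used here do not state tool versions, the control or the calling threshold. The deposited lists hold the authors' fold of each peak (a ratio of signal over local background), its p-value and q-value as −log10, and its summit; peak ends were those of mm9. Depth is unknown. Overlaps were computed in Python 3.11.15 with pandas 2.3.3 and NumPy 2.4.6 by code checked on simulated intervals, with Wilson intervals from SciPy 1.17.1. The regions, rules and lists were chosen with earlier results of these data known. Named were, by −log10 p rank, 6 kept, 6 lost (no P0 peak) and 6 gained regions, the 3 kept regions that rose and the 3 that fell most in percentile, and the 3 fullest 1 Mb windows of each class. Peaks outside chr1 to chr19 were left out. Alternatives changed the overlap rule, replicates, q-value, list length, ranking and adult or BCOR lists.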

Additional observations from a re-analysis of the deposited data

Results flagged for a closer look

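Peaks outside chr1 to chr19 entered no comparison above, and there was no control library to set them against. The E14 Otx2 list held 243 such peaks, P0 replicate 1 held 477 and P0 replicate 2 held 495, most of them on chrX. On chrX 107 of 160 E14 regions were kept, 66.9% (95% Wilson interval 59.3 to 73.7%), and 229 of 335 P0 regions were gained, 68.4% (63.2 to 73.1%).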

How the results depend on the processing

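No paired analysis was possible because E14 had a single library without a replicate number and no test was made. With 17 shares and 114 alternatives, 35 values stayed within the 95% interval of the share and 79 did not. Requiring a 50% reciprocal overlap gave 41.5% of E14 regions kept and 80.7% of P0 regions gained; P0 peaks are wider, which this rule penalises by its construction. Summits within 200 bp gave 72.1 and 66.6%, a P0 peak of either replicate 85.5 and 74.4%, equal list lengths 55.8 and 45.0% (ranks by fold 49.8 and 50.9%), and regions free of BCOR peaks of their own stage 76.1 and 80.8%. Leaving out a P0 replicate gave 79.6 to 82.7% kept and 69.2 to 72.0% gained.

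At equal list lengths, E14 with P0 replicate 1, E14 with P0 replicate 2 and the P0 replicates shared, in that order, 28.0, 25.8 and 85.6% of the strongest 500 peaks, 35.1, 33.5 and 84.3% of 1000, 42.7, 39.75 and 86.55% of 2000 and 51.3, 50.1 and 85.1% of 5000. At full E14 length they shared 49.8, 48.0 and 82.8% with ranks by fold, 33.8, 30.3 and 82.4% with a 50% reciprocal overlap and 49.9, 48.9 and 81.6% with summits within 200 bp.

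For kept, lost and gained regions in that order, the adult Otx2 shares were 21.8, 1.50 and 12.75% with a 50% reciprocal overlap, 33.5, 4.52 and 18.9% as means over the 5 bins of strength, and 35.2 to 58.6%, 2.84 to 22.1% and 17.1 to 27.2% with an adult replicate left out. The BCOR E14 shares were 50.3, 39.6 and 6.49% with a 50% reciprocal overlap and 63.1, 70.4 and 11.2% over the bins. The BCOR P0 shares were 29.4, 11.4 and 3.09% with a 50% reciprocal overlap, 37.2, 23.7 and 5.23% over the bins, and 40.9 to 60.1%, 23.5 to 41.7% and 5.22 to 11.3% with a P0 replicate left out. The adult BCOR shares were 9.96, 2.63 and 0.560% with a 50% reciprocal overlap, 10.85, 6.13 and 0.890% over the bins, and 14.7 to 22.4%, 5.88 to 9.43% and 1.08 to 2.57% with an adult replicate left out. Lost regions with no peak in either P0 list had adult Otx2, BCOR E14 and BCOR P0 shares of 2.11, 60.3 and 19.4%. With the longer replicate list cut to the length of the shorter, which was chosen after the data were seen, the adult Otx2 shares were 42.8, 6.39 and 15.9%, the BCOR P0 shares 46.1, 28.2 and 5.74% and the adult BCOR shares 15.0, 5.10 and 1.16%. Kept regions had a higher adult Otx2, BCOR P0 and adult BCOR share than lost and gained ones under each of these settings, while BCOR E14 was higher at lost than at kept regions over the bins of strength. Other causes of the moves were not tested. Read depth is unknown, and the E14 list rests on 1 library.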
